A study of Mus musculus with 10 samples.

Results

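The bladders of mice that lack PRELP were compared with wild type (WT) bladders by RNA sequencing, using all 3 libraries titled as PRELP knockouts and all 4 titled as wild type, 7 of the 10 libraries of the series. The other 3 come from OMD-/- mice and are not described. Both groups were C57BL/6 and were given no treatment that the labels name. Age and sex are not in the labels. The mice carried a constitutive null allele, in every cell type, in which a lacZ reporter driven by the *Prelp* promoter stands in for the coding part of exons 2 and 3. The study speaks of isolated bladder epithelia, whereas the labels describe homogenised bladder tissue. The study profiled these bladders because it proposes that the protein maintains adhesion between cells and inhibits epithelial-mesenchymal transition. The lists read here hold tight junction genes, but there is no list of cadherins or of epithelial-mesenchymal transition genes. Numbers of mice given in the study differ from the numbers of libraries deposited, and nothing in the labels ties a library to an animal, so p-values measure the spread between libraries, which may be technical.

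PRELP is a small leucine-rich proteoglycan, a family of secreted matrix proteins built on leucine-rich repeats that bind collagen, basement membrane components and growth factors. Biglycan, decorin, lumican and fibromodulin are members of the same family and help to set the width and spacing of collagen fibrils. In the bladder the urothelium lies on a basement membrane, with basal cells below and uroplakin-covered umbrella cells facing the lumen, and fibroblasts of the lamina propria make most of the fibrillar collagen.

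Sequence upstream of 4 genes that the results turn on was taken from RefSeq (GRCm38.p6) and runs over the 250 bases before the annotated start, in the direction of transcription. *Prelp* is shown because its promoter was left to drive the reporter, *Bgn* because it was the family member that rose, *Col1a2* as a fibrillar collagen chain that rose, and *Meg3* as a long non-coding RNA that fell. Capitals mark TATAAA, the core of a TATA box, and CAGACA, a SMAD-binding motif, searched on both strands. Windows are chr1:133921402-133921651 (- strand) for *Prelp*, chrX:73483351-73483600 (+) for *Bgn*, chr6:4505368-4505617 (+) for *Col1a2* and chr12:109540746-109540995 (+) for *Meg3*.
Prelp: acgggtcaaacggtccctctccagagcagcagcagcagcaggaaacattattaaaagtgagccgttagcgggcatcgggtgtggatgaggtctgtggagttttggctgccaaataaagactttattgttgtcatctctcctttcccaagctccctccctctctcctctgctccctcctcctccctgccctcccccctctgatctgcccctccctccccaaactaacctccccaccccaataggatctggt
Bgn: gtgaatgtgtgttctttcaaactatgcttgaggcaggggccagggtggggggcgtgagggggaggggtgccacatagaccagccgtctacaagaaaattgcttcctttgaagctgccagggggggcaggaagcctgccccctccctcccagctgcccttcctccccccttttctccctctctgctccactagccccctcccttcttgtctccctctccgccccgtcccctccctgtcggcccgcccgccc
Col1a2: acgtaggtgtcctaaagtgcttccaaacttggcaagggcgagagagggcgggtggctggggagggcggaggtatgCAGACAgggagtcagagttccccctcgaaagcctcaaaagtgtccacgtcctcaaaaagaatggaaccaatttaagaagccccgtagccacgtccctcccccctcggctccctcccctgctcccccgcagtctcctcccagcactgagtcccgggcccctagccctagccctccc
Meg3: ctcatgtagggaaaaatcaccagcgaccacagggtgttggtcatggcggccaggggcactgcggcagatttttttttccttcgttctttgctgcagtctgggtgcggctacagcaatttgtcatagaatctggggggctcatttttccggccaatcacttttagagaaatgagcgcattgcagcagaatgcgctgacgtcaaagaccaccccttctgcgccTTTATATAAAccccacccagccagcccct
Of 32851 promoter windows of this length, 12.4% held TATAAA and 17.1% held CAGACA on either strand. The *Meg3* window held 2 overlapping TATAAA matches, 1 on each strand, which together form the run in capitals. The *Col1a2* window held 1 CAGACA match. Neither motif was found in the windows of *Prelp* and *Bgn*.

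Before the results, the libraries themselves need describing. Total counts ranged from 20391437 to 46269079, and PRELP-/- replicate 1 stood apart from every other library. Among 11510 genes with a mean of at least 5 CPM (read counts scaled to library size with TMM factors), it lay over 2-fold above both other PRELP-/- libraries in 823 genes and over 2-fold below both in 1138. The same counts were 0 and 0 for replicate 2, and 0 and 2 for replicate 3. PRELP-/- replicates 2 and 3 were very alike, with a chi-square per gene of 3.83 between their counts, where 1 would be sampling noise alone. WT replicates 1 and 2 (12.7) and WT replicates 3 and 4 (9.34) also lay close, while other WT pairs ran from 32.8 to 55.8, and PRELP-/- replicate 1 differed from replicates 2 and 3 by 251 and 247.

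The same pairs appeared in genes that differ between individuals. *Igkv3-2* is a kappa light chain variable segment used by B cells. It had 5.63, 4.81, 0.135 and 0.134 CPM in WT replicates 1 to 4 and 0.392, 61.8 and 58.1 CPM in PRELP-/- replicates 1 to 3. *Ighv1-78*, chosen after its values were seen, was at 0 in all 4 WT libraries and at 0.112, 7.26 and 7.51 CPM in PRELP-/-. Both segments were thus high together in PRELP-/- replicates 2 and 3. *Ddx3y*, on the Y chromosome, had 67.9, 59.6, 0 and 0 CPM in WT and 38.9, 6.28 and 6.34 in PRELP-/-. *Xist*, which is transcribed from the inactive X chromosome, had 2.18, 5.75, 1038 and 1240 CPM in WT and 0.392, 49.1 and 56.3 in PRELP-/-. WT replicates 1 and 2 and WT replicates 3 and 4 were on opposite sides in both genes, and PRELP-/- replicates 2 and 3 held reads of both. Whether close libraries come from separate animals was not stated, so counts are also given below with each close pair summed into 1 library.

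*Prelp* (ENSMUSG00000041577, chromosome 1, 133910304 to 133921414, - strand, GRCm38) had 324, 290, 259 and 217 CPM in WT replicates 1 to 4 and 4.15, 1.87 and 2.15 CPM in PRELP-/- replicates 1 to 3. Every PRELP-/- library was low and the groups did not overlap, with a log2 fold change of -6.66 ± 0.35 (SE). *Omd*, which encodes the related proteoglycan osteomodulin, ran from 0 to 0.538 CPM in WT and from 0.280 to 0.327 CPM in PRELP-/-, too low for a test.

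Across the transcriptome, 1209 of 16581 genes in the test fell below an adjusted p of 0.05 in the quasi-likelihood test of edgeR (Benjamini-Hochberg method), 7.29% of those tested. Of these, 232 were higher in PRELP-/- (1.4%) and 977 were lower (5.89%). The median log2 fold change of all tested genes was 0.02. Without PRELP-/- replicate 1, 3807 of 17120 genes passed (22.2%), 1835 higher (10.7%) and 1972 lower (11.5%), and the 1209 shared 1204 genes with these. With the close pairs summed, which leaves 2 libraries a group, 13 of 18335 genes passed (0.0709%) and all 13 were lower. In all, 371 genes passed with all 7 libraries and without each library in turn, 11 of them higher and 360 lower.

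Beside *Prelp* itself, 1 small leucine-rich proteoglycan rose and 1 fell. Of 14 tested members, 1 was higher, 2 were lower including *Prelp*, and 11 did not pass, with a median log2 fold change of -0.12 against 0.02 over all tested genes. That is 7.14% higher and 14.3% lower, against 1.4% and 5.89% of all tested genes. *Bgn* (ENSMUSG00000031375, chromosome X, 73483602 to 73495933, + strand), which encodes biglycan, had 592, 555, 386 and 355 CPM in WT and 895, 1140 and 1100 CPM in PRELP-/-. All 3 PRELP-/- libraries lay above all WT libraries, at 1.15 ± 0.22 (log2 fold change ± SE) with a Benjamini-Hochberg adjusted p of 0.0190 in edgeR, and the highest adjusted p with 1 library left out was 0.0732. *Optc*, which encodes opticin and lies 2.31 kb from *Prelp*, had 0.428, 0.579, 2.84 and 2.37 CPM in WT and 0.112, 0.0811 and 0.0467 CPM in PRELP-/-. That is 2, 2 and 1 counts in the knockout libraries, a WT to PRELP-/- ratio of 16.5 with an exact 95% counting interval of 6.93 to 51.7.

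*Dcn*, *Tsku* and *Lum* did not pass. Decorin (*Dcn*), which binds type I collagen, had 1810, 1667, 2483 and 2433 CPM in WT and 1622, 2715 and 2749 CPM in PRELP-/-. The groups overlapped, with PRELP-/- replicate 1 below every WT library and replicates 2 and 3 above. Fibromodulin (*Fmod*) differed between the WT pairs, at 51.1, 44.8, 18.7 and 15.6 CPM in WT and 35.6, 60.6 and 57.8 CPM in PRELP-/-.

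**Figure D1:**
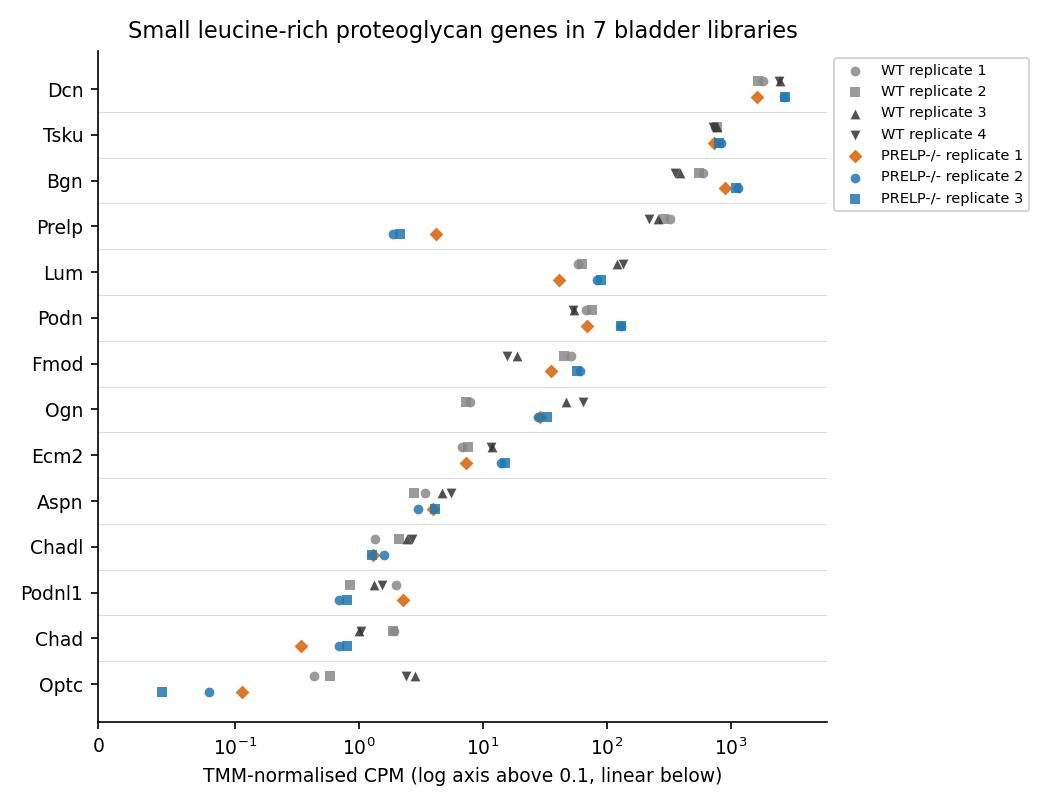
TMM-normalised CPM (log axis) of the 14 tested small leucine-rich proteoglycan genes, 1 point per library, WT grey and black, PRELP-/- orange (replicate 1) and blue (replicates 2 and 3). *Prelp* and *Optc* lie to the left in PRELP-/- and *Bgn* to the right of every WT library, while the other 11 did not pass the test.

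Several collagen genes rose. Of 31 tested collagen chain and processing genes, 5 rose, 0 fell and 26 did not pass, and 28 had a positive fold change (median log2 0.47). The share that rose was 16.1%, against 1.4% of all tested genes. Without PRELP-/- replicate 1 the count was 20 higher and 0 lower of 31 with a median of 0.71, where 10.7% of all tested genes were higher. With close pairs summed 0 passed in edgeR. *Col1a1* (ENSMUSG00000001506, chromosome 11, 94936224 to 94953042, + strand), a chain of type I collagen, had 2484, 2368, 1595 and 1616 CPM in WT and 3298, 6005 and 5733 CPM in PRELP-/-. The groups did not overlap, although PRELP-/- replicate 1 sat nearer to WT (log2 fold change 1.31 ± 0.28 SE, Benjamini-Hochberg adjusted p = 0.0263, edgeR). The call of *Col1a1* was lost in 6 of the 7 fits that leave out 1 library, with a highest Benjamini-Hochberg adjusted p of 0.0961 in edgeR. *Serpinh1*, the collagen chaperone HSP47, rose by 0.81 on the log2 scale, from 259 to 315 CPM in WT to 476, 529 and 524 CPM in PRELP-/-. *Sparc*, a collagen-binding matricellular protein, rose by 0.93, and *Pcolce*, which enhances removal of the procollagen C-propeptide, rose by 0.71.

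Elastic fibre and matricellular genes gave a median of 0.44, with 3 of 23 tested genes higher (13%, against 1.4% of all tested genes) and 0 lower. These were *Efemp2* (0.83), *Fbln5* (0.79) and *Mfap2* (0.68), which encode fibulin-4, fibulin-5 and a microfibril protein, on the log2 scale. Without PRELP-/- replicate 1, 13 of 24 were higher. *Efemp2* shares exon sequence with *Mus81*, so its level is uncertain because the strand setting of the counting is not given in the sources used here.

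In the basement membrane list the genes that passed were lower, 3 of 26 tested with 0 higher and a median of 0.06. The share that was lower was 11.5%, against 5.89% of all tested genes. *Lama5* (ENSMUSG00000015647, chromosome 2, 180176373 to 180225859, - strand), the laminin alpha 5 chain, had 369, 441, 398 and 406 CPM in WT and 103, 155 and 148 CPM in PRELP-/-. All PRELP-/- libraries were low and the groups were far apart (log2 fold change -1.57 ± 0.18 SE, Benjamini-Hochberg adjusted p = 0.00212, edgeR). *Lama1*, another laminin alpha chain, fell by 1.58 and *Col7a1*, the anchoring fibril collagen, fell by 2.09 on the log2 scale. Without PRELP-/- replicate 1 the same list had 13 higher and 3 lower of 26.

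In the signalling and junction lists, the shares that passed are set against 1.4% higher and 5.89% lower over all tested genes. Of TGF-β genes 9.09% and of tight junction genes 3.45% were higher, and of EGF genes 4.35% were lower, each from 1 or 2 genes. Of 22 TGF-β components and targets, *Tgfbi* (0.86) and *Tgfb3* (0.70) rose, 20 did not pass and the median was 0.14. *Tgfbi*, a TGF-β-induced matrix adhesion protein, had 236, 214, 211 and 200 CPM in WT and 295, 442 and 437 CPM in PRELP-/-. Of 23 EGF ligands, receptors and feedback genes only *Egf* passed, at 1.55, 2.05, 2.84 and 1.75 CPM in WT and 0.672, 0.405 and 0.467 CPM in PRELP-/-, and its call was lost without PRELP-/- replicate 2 or 3. Of 29 tight junction genes 1 rose, *Cldn1*, a tight junction claudin, from between 18.0 and 20.6 CPM in WT to 28.5, 31.9 and 35.2 CPM (log2 fold change 0.71), and 28 did not pass. None of 25 immediate early genes, 24 cholesterol synthesis genes, 20 coagulation and fibrinolysis genes or 24 proliferation genes passed in the edgeR test. Their medians were 0.08, 0.11, 0.14 and 0.39. In these 4 lists 3, 5, 3 and 7 genes had an unadjusted p under 0.05 in edgeR, DESeq2 called 2, 2, 2 and 1, and limma-voom with sample quality weights called 8, 9, 9 and 10.

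Individual protein-coding genes with large rises had varied roles. *Serpina3n* (ENSMUSG00000021091, chromosome 12, 104406729 to 104414329, + strand), a secreted serine protease inhibitor, had 122, 123, 90.5 and 90.2 CPM in WT and 239, 286 and 282 CPM in PRELP-/-. The 3 PRELP-/- libraries were all at least 239 CPM and the groups did not overlap (log2 fold change 1.34 ± 0.17 SE, Benjamini-Hochberg adjusted p = 0.00314, edgeR). *Ndp*, which encodes the Frizzled-4 ligand norrin, rose from between 4.73 and 6.08 CPM to 10.98, 17.3 and 19.3 CPM (log2 fold change 1.53). *Sostdc1*, a secreted antagonist of BMP and Wnt signalling, rose by 1.55 from 2.19 to 4.10 CPM in WT to 11.8, 7.26 and 7.18 CPM. *Cyp2c23* (1.81) and *Cyp2e1* (1.36), cytochrome P450 enzymes, *Racgap1* (1.29), a regulator of cytokinesis, *Slco2b1* (1.23), an organic anion transporter, *Melk* (1.23), a mitotic kinase, and *Gm4737* (1.29) completed the 10 largest with *Col1a1*. The 5 largest rises outside the protein-coding class were processed pseudogenes, *Gm13456* (1.32), *Gm6929* (1.19), *Gm8960* (1.05), *Gm12009* (1.01) and *Gm13050* (0.82), whose reads can be shared with their parent genes.

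The 11 genes that stayed higher without each library in turn were *Axl*, *Cpz*, *Cyp2e1*, *Fxyd6*, *Gpx3*, *Igfbp6*, *Mob3b*, *Ndp*, *Rtn2*, *Serpina3n* and *Tmem176a*, of which those outside the naming rule were picked after their values were seen. *Axl*, a receptor tyrosine kinase, had 174, 195, 161 and 161 CPM in WT and 318, 323 and 319 CPM in PRELP-/-, with log2 fold change 0.89. *Igfbp6*, an insulin-like growth factor binding protein, rose from between 58.5 and 63.1 CPM to 137, 121 and 115 CPM, with log2 fold change 1.03. In *Axl* and *Igfbp6* PRELP-/- replicate 1 lay near replicates 2 and 3, which was not so in *Cyp2e1* and *Ndp*, where it was the lowest of the 3. Of the 32 named genes that passed as higher, 4 passed without each library in turn (*Cyp2e1*, *Gpx3*, *Ndp* and *Serpina3n*), and the other 28 lost the call in at least 1 of the 7 fits. *Col1a1*, *Col1a2*, *Pcolce*, *Fbln5*, *Mfap2*, *Tgfbi*, *C1qc*, *C4b*, *H2-Ab1*, *Melk*, *Upk2* and *Gm6929* lost it in 6 of the 7. They kept it only without PRELP-/- replicate 1.

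The largest falls included RNAs that stay in the nucleus. Of 21 tested nuclear-retained long non-coding RNAs, 11 were lower, 1 was higher and 9 did not pass, with a median log2 fold change of -1.97. The share that was lower was 52.4%, against 5.89% of all tested genes. Without PRELP-/- replicate 1 the counts were 12 lower and 1 higher, and with close pairs summed 5 passed. *Neat1* (ENSMUSG00000092274, chromosome 19, 5824708 to 5845478, - strand), the scaffold of paraspeckles, had 460, 388, 348 and 372 CPM in WT and 15.5, 17.9 and 16.0 CPM in PRELP-/-. The 3 PRELP-/- libraries lay close together and far below WT (log2 fold change -4.57 ± 0.18 SE, Benjamini-Hochberg adjusted p = 1.04e-05, edgeR).

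*Meg3* (ENSMUSG00000021268, chromosome 12, 109541001 to 109571726, + strand), a maternally expressed imprinted RNA, had 129, 123, 115 and 109 CPM in WT and 4.65, 2.15 and 4.20 CPM in PRELP-/-. Its log2 fold change was -5.03 ± 0.28 SE (Benjamini-Hochberg adjusted p = 9.35e-05, edgeR). *Firre* (ENSMUSG00000085396, chromosome X, 50555744 to 50635321, - strand), an X-linked RNA that shapes chromatin, had 99.4, 91.9, 114 and 109 CPM in WT and 2.52, 3.57 and 3.41 CPM in PRELP-/-. In both genes every knockout library was low and no WT library came near them. *AI480526* fell by 3.94 on the log2 scale and shares exon sequence with *Gm38102* on the other strand, which also passed, at -5.18, from 1 and 2 counts in PRELP-/- replicates 2 and 3 and 0 in replicate 1. *Malat1*, an abundant RNA of nuclear speckles, was lower too, at 774, 845, 1137 and 1058 CPM in WT and 175, 211 and 231 CPM in PRELP-/-. Not every listed RNA fell: *Peg13*, an imprinted RNA, rose by 0.50, and *Tug1* had 89.2 to 117 CPM in WT and 51.0, 94.0 and 106 CPM in PRELP-/-. *Malat1*, *Peg13* and *Tug1* were picked from the list after their values were seen.

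**Figure D2:**
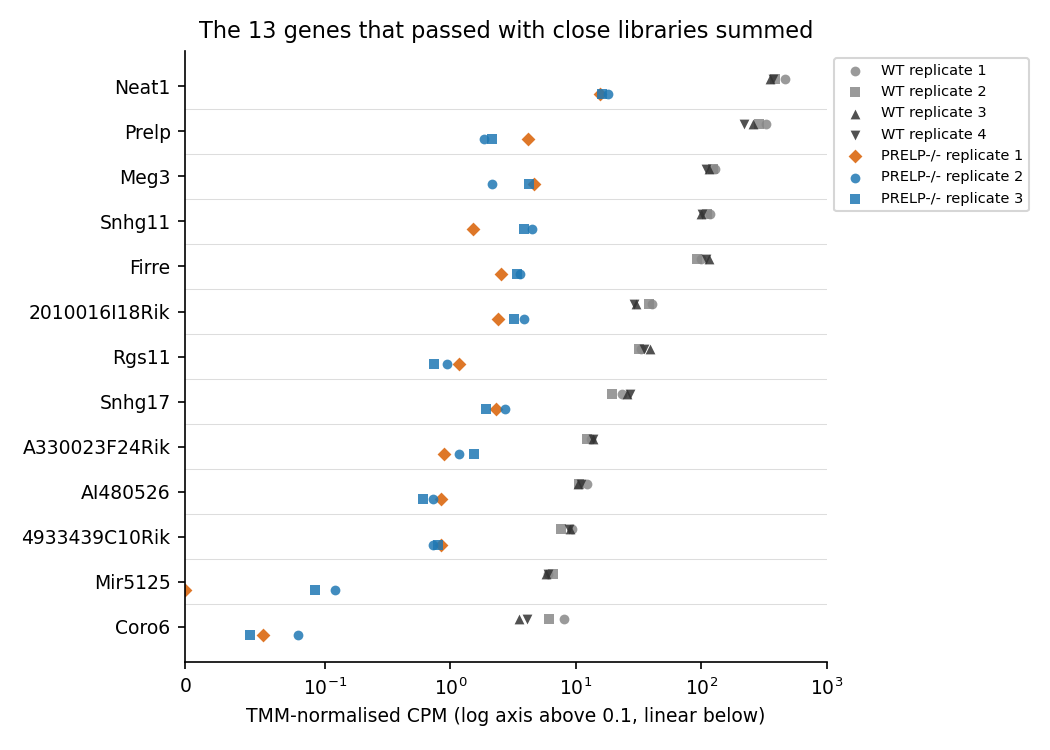
TMM-normalised CPM (log axis) of the 13 genes that passed in edgeR with each close pair of libraries summed, 1 point per library, WT grey and black, PRELP-/- orange (replicate 1) and blue (replicates 2 and 3). In each gene all 3 PRELP-/- libraries lie together to the left of all 4 WT libraries.

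Beside *Prelp*, *Neat1*, *Meg3*, *Firre* and *AI480526*, the 13 held *Snhg11*, *Snhg17*, *Rgs11*, *Coro6*, *Mir5125*, *A330023F24Rik*, *2010016I18Rik* and *4933439C10Rik*, the last 3 picked after their values were seen. *Snhg11*, annotated as protein-coding but named as a small nucleolar RNA host gene, had 116, 111, 98.8 and 101 CPM in WT and 1.51, 4.46 and 3.87 CPM in PRELP-/-. *Rgs11*, a regulator of G protein signalling, had 32.8, 31.5, 39.0 and 35.1 CPM in WT and 1.18, 0.932 and 0.746 CPM, and it shares exon sequence with *Arhgdig* on the other strand, so its level is uncertain. *Coro6*, a coronin that binds actin, had 1, 2 and 1 counts in PRELP-/-, a WT to PRELP-/- ratio of 96.4 with an exact 95% counting interval of 37.5 to 355. The *Mir5125* locus had a ratio of 77.4 (33.0 to 239), which counts polyadenylated RNA over the locus and not the mature miRNA.

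The further largest falls among protein-coding genes were *Gm49405* (log2 fold change -4.96), *Lilrb4a* (-4.58), *Tnnt2* (-4.39), *Col11a2* (-4.36), *Gpc2* (-4.27) and *Gm8113* (-4.23), all of them low in counts. *Tnnt2*, cardiac troponin T, had 2.81, 1.92, 19.9 and 16.0 CPM in WT and 0.840, 0.365 and 0.280 CPM in PRELP-/-, so its WT level differed between the close pairs as well. The calls of *Lilrb4a* and *Tnnt2* were lost with some libraries left out, with highest Benjamini-Hochberg adjusted p of 0.0601 and 0.0973 in edgeR. *Igkv10-96*, an immunoglobulin segment (-5.67), was the remaining member of the 5 largest falls outside the protein-coding class.

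Of 16 tested small nucleolar RNA host genes, 5 were lower, 0 higher and 11 did not pass, with a median log2 fold change of -1.10. The share that was lower was 31.2%, against 5.89% of all tested genes. *Snhg17* had 23.2, 19.4, 25.3 and 26.8 CPM in WT and 2.30, 2.72 and 1.91 CPM in PRELP-/- (log2 fold change -3.35). *Snhg20* (-3.47) and *Snhg15* (-2.11) fell with it. *Snhg8*, in contrast, had 18.2 to 25.0 CPM in WT and 70.9, 22.7 and 22.4 CPM in PRELP-/-, where only replicate 1 stood out.

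Many genes for splicing factors and CLK kinases fell. Of 44 tested, 20 fell, 0 rose and 24 did not pass, with a median log2 fold change of -0.64. The share that fell was 45.5%, against 5.89% of all tested genes. Without PRELP-/- replicate 1, 27 were lower and 2 higher of 44 with a median of -0.59, and with close pairs summed 0 passed in edgeR. *Srsf11* (ENSMUSG00000055436, chromosome 3, 158010473 to 158036639, - strand), a serine/arginine-rich splicing factor, had 113, 97.9, 108 and 107 CPM in WT and 38.5, 46.2 and 46.1 CPM in PRELP-/-. All 3 PRELP-/- libraries were below every WT library, at -1.29 ± 0.14 (log2 fold change ± SE) with a Benjamini-Hochberg adjusted p of 0.00131 in edgeR. *Pnisr*, a speckle-associated protein, had 103, 99.0, 115 and 111 CPM in WT and 12.7, 26.1 and 27.8 CPM in PRELP-/- (log2 fold change -2.27). *Luc7l3* (-1.46) and *Luc7l2* (-1.15), subunits that act with the U1 particle, fell with them.

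Calls were also counted by annotated class. Of 14001 tested protein-coding genes, 4.51% were lower and 1.59% higher, with a median log2 fold change of 0.04. Of 434 lincRNAs, 69 (15.9%) were lower and 0 higher (median -0.50), and of 419 antisense RNAs, 93 (22.2%) were lower and 0 higher (median -0.65). TEC transcripts, a GENCODE class of mostly unspliced loci without settled gene models, had 71 of 288 lower (24.7%), 0 higher and a median of -1.18. Processed transcripts had 52 of 243 lower (21.4%) and 1 higher. The counts of 0 higher are from edgeR with all 7 libraries, and without PRELP-/- replicate 1 they were 5, 1 and 3 for lincRNAs, antisense RNAs and TEC transcripts. Processed pseudogenes had 7 of 849 higher (0.824%) and 10 lower (1.18%), with a median of 0.40 that was 0.11 without PRELP-/- replicate 1. Antisense counts are uncertain because the strand setting of the counting is unknown. None of the 37 mitochondrially encoded genes had a count in any of the 7 libraries.

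**Figure D3:**
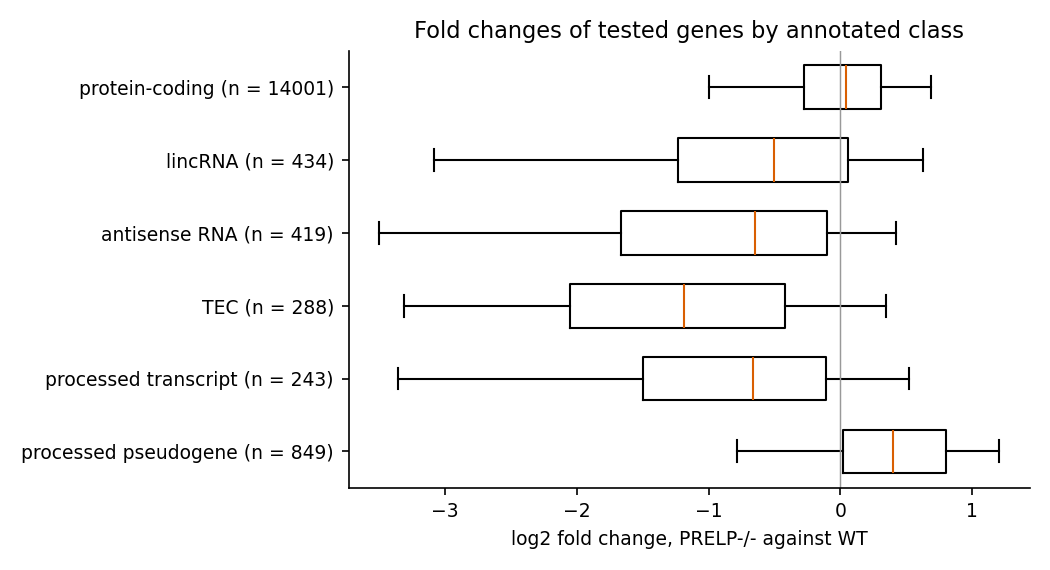
Log2 fold change (PRELP-/- against WT) of tested genes in 6 annotated classes; boxes span the quartiles, orange lines are medians and whiskers reach the 5th and 95th percentiles. Medians of lincRNA, antisense RNA, TEC and processed transcript classes lie below 0 (-0.50, -0.65, -1.18 and -0.67), that of processed pseudogenes above (0.40).

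In the stress, immune and clock lists, the shares that passed are set against 1.4% higher and 5.89% lower over all tested genes. Of chaperone and ER stress genes 3.33% were lower, and of clock genes 10.5%. Of complement genes 12.5% were higher and 4.17% lower, and of MHC class II genes 9.09% were higher. Of 30 chaperone and ER stress genes, 1 passed: *Atf4* (ENSMUSG00000042406, chromosome 15, 80255184 to 80257541, + strand), the transcription factor of the integrated stress response, had 118, 110, 129 and 115 CPM in WT and 37.4, 33.2 and 31.2 CPM in PRELP-/- (log2 fold change -1.80 ± 0.14 SE, Benjamini-Hochberg adjusted p = 0.000301, edgeR). The other 29 did not pass and the list's median was 0.23. Of 19 clock genes, *Per3* (-1.66) and *Per2* (-1.18), repressors of the circadian loop, fell and 17 did not pass. The call of *Per2* was lost in 6 of the 7 fits that leave out 1 library, with a highest Benjamini-Hochberg adjusted p of 0.103 in edgeR, and that of *Per3* in none (highest 0.0229). *Per3* had 36.9, 36.9, 43.3 and 43.8 CPM in WT and 7.95, 15.0 and 15.1 CPM in PRELP-/-, and collection times are not in the labels.

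Of 24 complement genes, *C1qa* (0.80), *C1qc* (0.56) and *C4b* (0.91), of the classical pathway, rose and the complement inhibitor *Cd46* (-1.46) fell, with a median of 0.34. *Cd46* shares exon sequence with *A330023F24Rik*, which also fell, so its level is uncertain. *C1qa*, which macrophages express, was the 1 called gene of 13 tested macrophage markers (7.69% higher, against 1.4% of all tested genes). The summed level of these markers was 422 to 500.3 CPM in WT and 403, 496 and 489 CPM in PRELP-/-. Of 11 MHC class II genes *H2-Ab1* rose (0.62), from between 135 and 159 CPM to 220, 240 and 230 CPM, and 10 did not pass (median 0.48). Of 30 interferon-stimulated genes *Mx1* and *Mx2* passed as lower, both under 1.4 CPM in every library, which is 6.67% of the list against 5.89% of all tested genes, and the median was 0.02. The calls of *Cd46*, *Mx1* and *Mx2* were lost with some libraries left out, with highest Benjamini-Hochberg adjusted p of 0.0851, 0.0647 and 0.132 in edgeR.

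Marker levels were read to see which cells the libraries hold. In bulk RNA, fewer cells of a type and less RNA per cell cannot be told apart. Summed over all genes, TMM-scaled levels were 913303 to 950913 CPM in WT and 1209270, 1050050 and 1041590 CPM in PRELP-/-. A summed level of a list is to be read against this difference, for which list sums were not corrected. Urothelial markers were abundant in all 7 libraries: the summed level of 15 umbrella cell markers was 15396 to 17352 CPM in WT and 31917, 21057 and 20337 CPM in PRELP-/-. The exact two-sided permutation p for the summed level was 0.0571, the smallest that 3 against 4 libraries can give. The sum over all genes gave the same p in this test. Of the 15 genes 1 passed as higher (6.67%, against 1.4% of all tested genes). This was *Upk2* (ENSMUSG00000041523, chromosome 9, 44452715 to 44454976, - strand), a uroplakin of the umbrella cell plaque. *Upk2* had 996, 1031, 1206 and 1082 CPM in WT and 2032, 1607 and 1558 CPM in PRELP-/- (log2 fold change 0.68 ± 0.17 SE, Benjamini-Hochberg adjusted p = 0.0477, edgeR). Its call was lost in 6 of the 7 fits that leave out 1 library, with a highest Benjamini-Hochberg adjusted p of 0.135 in edgeR. *Gata3*, a urothelial transcription factor picked after its values were seen, had 383 to 461 CPM in WT and 264, 443 and 422 CPM in PRELP-/-. Basal urothelium markers summed to 3349 to 4101 CPM in WT and 6694, 4750 and 4752 CPM in PRELP-/-, and 0 of 9 passed in edgeR, where 5 had an unadjusted p under 0.05, while DESeq2 called 4 and limma-voom 6.

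Stromal markers were present as well. The 15 fibroblast markers summed to 9505 to 10882 CPM in WT and 11252, 22030 and 21635 CPM in PRELP-/-. Of the 15, 3 were higher (*Gpx3*, *Col1a1* and *Col1a2*) and 0 lower, with a median log2 fold change of 0.47. That is 20% higher, against 1.4% of all tested genes. *Col1a1*, *Col1a2* and *Col3a1* stand in the collagen list too, so the summed levels of both lists share genes. The other 12 fibroblast markers summed to 3210 to 3967 CPM in WT and 3303, 5542 and 5546 CPM in PRELP-/-. Replicates 2 and 3 thus lay above WT and replicate 1 within it, and 1 of the 12 genes was higher (8.33%). The part of fibroblast markers in the collagen result was not tested. Smooth muscle markers summed to 827, 793, 2161 and 1968 CPM in WT and 579, 774 and 787 CPM in PRELP-/-, and 0 of 15 passed in edgeR, where 9 had an unadjusted p under 0.05, while DESeq2 called 4 and limma-voom 9. WT replicates 3 and 4 were the high ones, and PRELP-/- replicates 2 and 3 lay near WT replicates 1 and 2. *Myh11*, smooth muscle myosin, had 110, 98.4, 532 and 438 CPM in WT and 47.1, 88.4 and 87.2 CPM in PRELP-/-. Endothelium markers split the same libraries the opposite way, at 774, 812, 396 and 371 CPM in WT and 607, 977 and 946 CPM in PRELP-/-, and of 13 tested 0 passed in edgeR, 2 had an unadjusted p under 0.05, 2 were called by DESeq2 and 13 by limma-voom.

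In each of the other marker lists at most 1 gene passed in edgeR. Skeletal muscle markers summed to 9.83 to 25.5 CPM in WT and 5.77, 4.26 and 4.66 CPM in PRELP-/-. *Tnni2*, fast troponin I, was the 1 gene of 6 that passed (-2.21). The share that was lower was 16.7%, against 5.89% of all tested genes. Nerve and Schwann cell markers summed to 808 to 854 CPM in WT and 1181, 966 and 933 CPM in PRELP-/-. The single genes did not follow the sum. Of 13 tested, 5 had a positive fold change, 0 passed as higher and 1 as lower (7.69%, against 5.89% of all tested genes). The median was -0.04. Of 4 tested mesothelium markers and 16 tested lymphocyte markers 0 passed in edgeR, with 3 and 2 at an unadjusted p under 0.05. DESeq2 called 0 and 1 and limma-voom 2 and 4. The mesothelium list shares genes with the umbrella cell list, so its result is not separate from the urothelial one. Lymphocyte markers never exceeded 50.5 CPM in sum. Adipocyte markers ran from 971 to 1636 CPM in WT and were 2366, 1209 and 1220 CPM in PRELP-/-. Of 12 listed, 4 were tested and 2 were at 0 in all 7 libraries, so the sum rests on few genes. Of the 4, 0 passed in edgeR, DESeq2 or limma-voom and 0 had an unadjusted p under 0.05. Male accessory gland markers stayed under 1 CPM in every library.

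**Figure D4:**
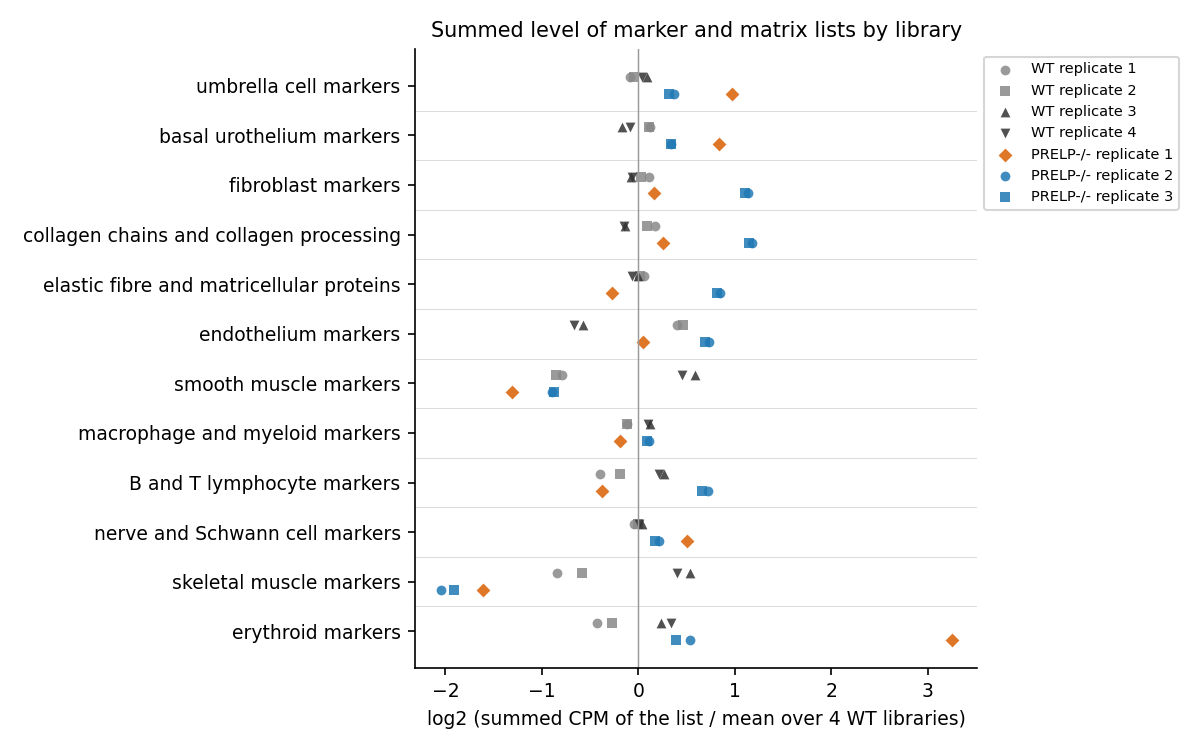
Summed CPM of 12 marker and matrix lists in each library, as log2 of the ratio to the mean of the 4 WT libraries, WT grey and black, PRELP-/- orange (replicate 1) and blue (replicates 2 and 3). Fibroblast and collagen lists are high in PRELP-/- replicates 2 and 3, erythroid markers are high in replicate 1, and smooth muscle and endothelium lists separate the WT pairs. Ratios are not corrected for the sum over all genes, which was higher in every PRELP-/- library than in any WT library.

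PRELP-/- replicate 1 differed from replicates 2 and 3 in blood, ribosomal and long genes. The genes highest there relative to the nearer of the other replicates were *Gm24270*, *Eif2s3y*, *Hbb-bs*, *Hbb-bt* and *Ddx3y*, and the lowest were *Igkv3-2*, *Xist*, *Jchain*, *Igkc* and *Myoc*. *Hbb-bs*, a beta globin, had 23.6, 20.4, 40.7 and 42.9 CPM in WT and 315, 44.1 and 41.6 CPM in PRELP-/-. Erythroid markers summed to 36.9 to 62.7 CPM in WT and 472, 72.0 and 65.3 CPM in PRELP-/-, and 0 of 7 passed in edgeR, where 6 had an unadjusted p under 0.05, while DESeq2 called 3 and limma-voom 2. The 92 cytosolic ribosomal protein genes summed to 43092 to 48967 CPM in WT and 156789, 56275 and 53790 CPM in PRELP-/-. Of 85 tested, 82 had a positive fold change. In edgeR 0 passed and 60 had an unadjusted p under 0.05, while DESeq2 called 42 and limma-voom 38. The rise was not confined to replicate 1. Without it, 37 of 86 tested were higher and 1 lower in edgeR, with a median log2 fold change of 0.23. Of all tested genes, 10.7% were higher and 11.5% lower in that fit. Genes of oxidative phosphorylation encoded in the nucleus summed to 8134 to 8850 CPM in WT and 19300, 9697 and 9404 CPM in PRELP-/-. Without replicate 1, 14 of these 88 tested genes were higher and 1 lower.

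Exon length went with these differences. Protein-coding genes were put into 4 equal bins by merged exon length. In the bin with the shortest exons (0.258 to 3.02 kb, 2777 genes), the median log2 ratio to the WT mean was 0.58 in PRELP-/- replicate 1, 0.05 in replicate 2 and 0.02 in replicate 3. In the bin with the longest (7.16 to 123 kb, 2773 genes) the medians were -0.60, 0.02 and 0.04. Only replicate 1 followed length among the knockout libraries. The part of exon length in the results was not tested, but counts without this library are given above.

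**Figure D5:**
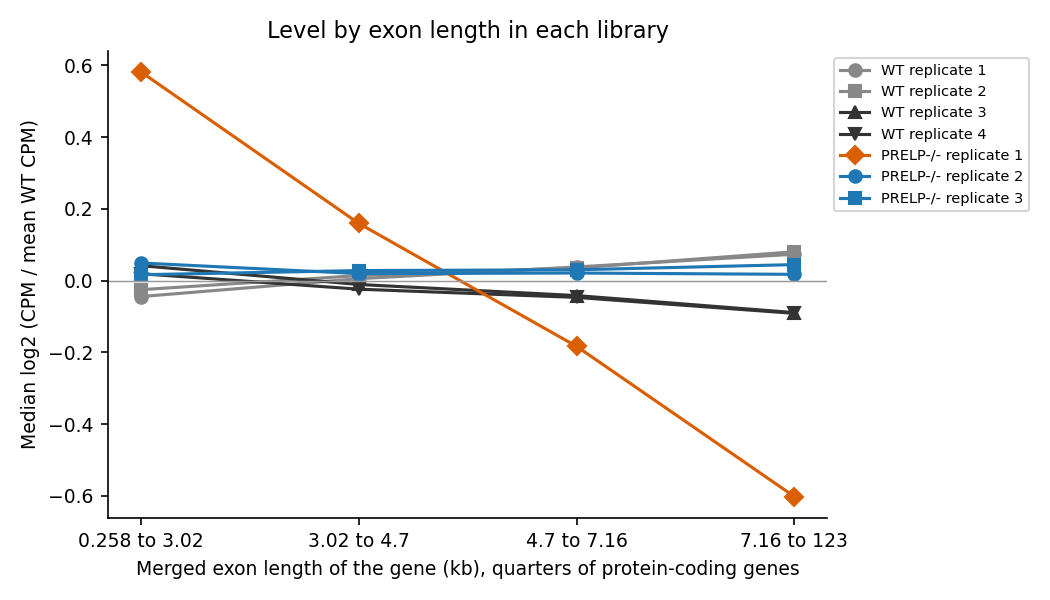
Median log2 ratio of CPM to the WT mean (vertical axis) in 4 bins of protein-coding genes by merged exon length in kb (horizontal axis), 1 line per library. PRELP-/- replicate 1 runs from 0.58 to -0.60, and PRELP-/- replicates 2 and 3 stay between 0.02 and 0.05.

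Genes beside *Prelp* were read because the targeted locus carries an inserted reporter. Of 31 tested genes within 1000000 bases, 0 were higher, 3 were lower and 28 did not pass, where 5.89% of all tested genes were lower. Those lower were *Optc*, *Zc3h11a* (-1.32), which shares exon sequence with *Gm38394* and encodes an RNA export factor, and *Mdm4* (ENSMUSG00000054387, chromosome 1, 132959484 to 133030561, - strand), which encodes an inhibitor of p53. *Mdm4*, 880 kb away, had 105, 107, 98.8 and 104 CPM in WT and 44.9, 38.6 and 38.6 CPM in PRELP-/-, at -1.35 ± 0.13 (log2 fold change ± SE) with a Benjamini-Hochberg adjusted p of 0.000823 in edgeR. *Fmod*, 116 kb away on the other side, and *Btg2*, an antiproliferative gene 154 kb away, did not pass. The calls of *Optc* and *Zc3h11a* were lost with some libraries left out, with highest Benjamini-Hochberg adjusted p of 0.0946 and 0.106 in edgeR, and *Mdm4* passed in all 7 such fits. *Btg2* had 153 to 169 CPM in WT and 248, 133 and 132 CPM in PRELP-/-, with replicate 1 above and replicates 2 and 3 below every WT library. *Snrpe*, a core protein of spliceosomal particles, had 24.4 to 47.03 CPM in WT and 73.6, 27.1 and 28.3 CPM.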

How the data were processed

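Per the labels, libraries were strand-specific, made from poly(A) RNA, and carried a molecular identifier. The authors deposited 1 table of read counts per library, with whole-number counts for 55536 genes and no normalization. Column headers name HISAT2, whereas the submitters' processing notes name STAR 2.5.2b, featureCounts and DESeq2, and the builds GRCm38 and hg38. How strand and identifiers were handled in counting is not given in the sources used here. Identifiers matched GENCODE vM21 (GRCm38) in 55536 of 55536 cases. The authors also deposited 2 DESeq2 tables (mean normalised counts, log2 fold changes, p-values), which were not used.

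Counts of 4 WT and 3 PRELP-/- libraries were fitted in R 4.3.3 with edgeR 4.0.16 (TMM factors, filterByExpr, robust quasi-likelihood test, two-sided) with p-values adjusted by the Benjamini-Hochberg method (16581 genes tested, threshold 0.05). A prior count of 2 was used only for the log2 CPM behind the correlations between libraries. The log2 fold changes came from the edgeR fit with its default prior count. The script was tested on simulated data for this comparison, with independent libraries, where it recovered part of the changes that had been put in. DESeq2 1.42.0, limma 3.58.1 (voom with sample quality weights), RLE factors, no filter, protein-coding genes alone, all 10 libraries in 1 fit, the Y genes as a covariate, the replicate number as a block and each library left out were alternatives, and summed close pairs and single WT pairs were added after seeing the data. Counting intervals are exact at 95% and cover counting error only. A floor of 3 counts corresponds to 0.0648 to 0.147 CPM by total counts, before TMM scaling. On the TMM scale 3 counts in PRELP-/- replicate 1 are 0.168 CPM.

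The members, lists and tests were chosen with earlier results of these data known. Genes were named by a rule: *Prelp* and *Omd*, then called genes that averaged 1 CPM or more and whose PRELP-/- libraries all lay beyond all WT libraries, excluding *Xist* and Y genes (10 protein-coding and 5 other genes in each direction), up to 4 called members of each list or else 2 by level, the 5 highest and 5 lowest genes of PRELP-/- replicate 1 among those of at least 5 CPM, and tested genes within 1000000 bases of *Prelp*. Levels of the single genes are TMM-scaled CPM without length correction, so they compare libraries and not genes. One gene that the rule named is not reported here.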

Additional observations from a re-analysis of the deposited data

Results flagged for a closer look

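In 7 of 165 values checked, 1 of the 4 WT libraries lay far from the other 3 relative to their range, where chance does so in about 1 of 20 groups. Total counts were 46269079 in WT replicate 1, against 20391437 to 21342576 in the others. *Syt2*, a neighbour of *Prelp*, was at 1.49 CPM in WT replicate 1, and *Gm37677*, another neighbour, was at 0 CPM there. The pseudogene *Gm6929* was at 1.43 CPM and *C1qc* at 35.7 CPM in the same library. *Col11a2* was at 3.27 CPM in WT replicate 4, and coagulation and fibrinolysis genes summed to 921 CPM there, below the 973 to 979 CPM of the other WT libraries.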

How the results depend on the processing

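The 1209 changed genes (232 higher, 977 lower) were close to the counts from RLE factors and no filter. DESeq2 gave 2571 (954 higher, 1617 lower), limma-voom with quality weights 6973 (3402 and 3571) and all 10 libraries in 1 fit 2485 (976 and 1509). Protein-coding genes alone gave 745 (152 and 593), by construction from fewer genes, and the Y genes as a covariate left 137 higher. Replicate numbers did not pair the libraries (r of -0.08, 0.14 and -0.12 for numbers 1 to 3), and the replicate block left 115 genes, 0 higher and 115 lower, with 2457 at an unadjusted p under 0.05 in edgeR. Leaving out 1 library gave 475 to 3807 genes, 19 to 1835 higher and 443 to 1972 lower, with the highest counts without PRELP-/- replicate 1 and the lowest totals without PRELP-/- replicate 2. Among fits chosen after seeing the data, summing PRELP-/- replicates 2 and 3 left 484 (34 and 450), summing all close pairs 13 (0 and 13, with 1789 at an unadjusted p under 0.05 in edgeR), WT replicates 1 and 2 alone 119 (1 and 118) and WT replicates 3 and 4 alone 453 (53 and 400). The causes were not tested. Genes called in both fits had the same direction in each of these 19 alternatives. *Btg2*, not called in the full fit, was lower in limma-voom (-0.25) and ran from -0.27 without PRELP-/- replicate 1 to 0.24 without replicate 3, and *Tmem183a* was lower in limma-voom (-0.30). The share of higher genes was 19.2% and ran from 0% to 48.8%. In data simulated for this comparison, edgeR recovered 31.6% of changes of 1 on the log2 scale and 84.1% of changes of 2, so smaller differences may be missed. In PRELP-/- replicate 1, genes under about 0.168 CPM on the TMM scale were below what 3 counts allow. The simulated libraries were drawn independently, without close pairs or an atypical library, so these shares need not hold for the real libraries.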
